A study of Mus musculus with 5 samples.

Results

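A set of 1264 RNA polymerase II (RNAPII) peaks lay close to other RNAPII peaks while carrying neither NELF nor R-loop signal of their own in primary mouse mammary epithelial cells. Each is an RNAPII peak under 5000 bp wide that overlapped no NELF-A, NELF-B or DRIP peak by even 1 bp and had another RNAPII peak within 10000 bp, edge to edge. They are called clustered RNAPII-only peaks here, and they made up 16.4% of the 7718 peaks in the RNAPII list (95% Wilson interval 15.6 to 17.2%). The set was chosen by these measured values (width, overlap and gap), so they are described below and not tested. For comparison, 425 isolated RNAPII-only peaks met the same conditions but had no other RNAPII peak within 10000 bp.

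The cells came from thoracic and inguinal glands of virgin mice, 6 to 8 weeks old and mixed in strain, whose genotype the labels do not give. The study set out to map RNAPII, NELF and R-loops over the mammary genome, and its 4 analysed groups are named for the target pulled down: RNAPII, NELF-A and NELF-B by ChIP-seq, and RNA-DNA hybrids by DRIP-seq. They also differ in preparation, with 1 ng of ChIP DNA and 15 PCR cycles for RNAPII, 0.2 ng and 18 cycles for each NELF subunit, and digested in place of sonicated DNA for DRIP. There is 1 peak list per target and no replicate list, and the RNAPII and DRIP lists each cover 2 libraries. The fifth sample, DRIP-seq after RNase H, was not analysed here. All intervals therefore cover counting error alone, and since peaks of 1 run share a locus they may be too narrow. Positions are in mm9. The deposited lists name no genes, and no gene annotation of that build was used, so regions are given by position.

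RNAPII transcribes protein-coding genes. Soon after it starts, it commonly pauses close to the gene's first bases, where NELF, the negative elongation factor, binds and holds it. NELF leaves when the polymerase is released into the gene body, so RNAPII without NELF is the usual state of a polymerase that is elongating or approaching the end of a gene. In an R-loop the nascent RNA stays paired with its template and displaces the second DNA strand. R-loops are found at many transcribed genes, often near the start and near the end.

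Lack of NELF and DRIP was a minority state among RNAPII peaks, and nearness to other RNAPII was frequent within it. Of all RNAPII peaks, 1735 overlapped none of the other targets, which is 22.5% of the list, and 1689 of these were under 5000 bp. Of those 1689, 74.8% (72.7 to 76.8%) had another RNAPII peak within 10000 bp, whereas 41.4% of all RNAPII peaks did. The thresholds cut through a continuum of values. There were 7 members at the greatest width allowed, 4750 bp, with a median score of 1492, and 4 otherwise similar peaks of 5000 bp, with a median score of 1269.5, lay just outside. The gap to the nearest RNAPII peak was 10000 bp for 4 members and 10250 bp for 6 of the isolated peaks. A further 44 RNAPII-only peaks lay close to other RNAPII but were 5000 bp or wider, and these were left out by the rule.

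The clustered RNAPII-only peaks were short and weak. Their median width was 750 bp, with quartiles of 500 and 1500 bp, and 479 (37.9%) had the smallest width in the RNAPII list, 500 bp. The isolated RNAPII-only peaks were as short, with a median of 750 bp and 40.2% at 500 bp, while over all RNAPII peaks the median was 1000 bp and 20.8% were 500 bp wide. The authors give 1 whole-number score per peak, of unstated unit, which was divided by width here. Per 250 bp the median score was 54.6 in the clustered RNAPII-only peaks (quartiles 53.0 and 58.0), 55.5 in the isolated ones (53.5 and 59.7) and 65.8 in the 1630 clustered peaks under 5000 bp that carried NELF or DRIP (56.5 and 83.5). The lowest value of any RNAPII peak was 51.8, so most members sat just above the floor of the list. The ratio of the members' median to that of the isolated peaks was 0.984.

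**Figure D1:**
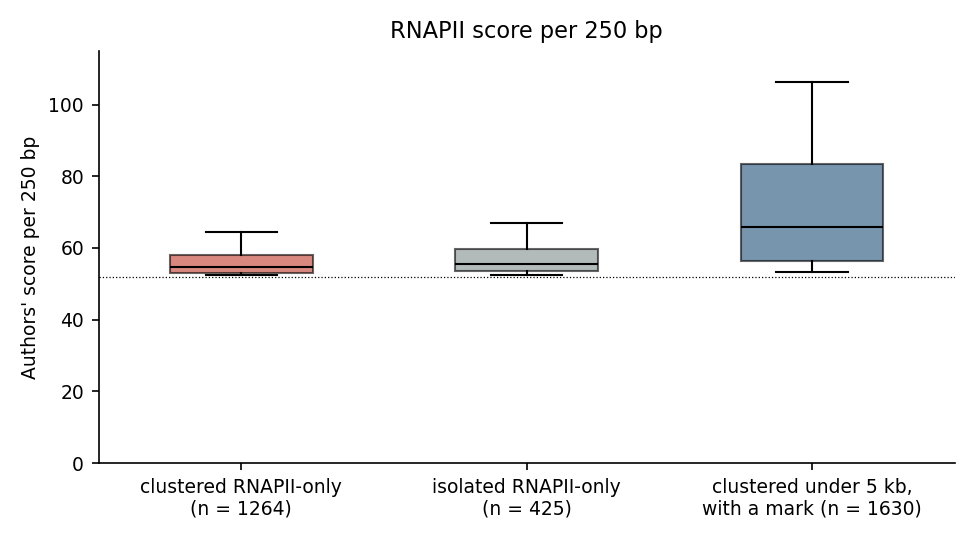
Authors' RNAPII score per 250 bp in the 3 classes of peak under 5000 bp. Boxes span the quartiles with the median as a line, whiskers reach the 10th and 90th percentiles, and the dotted line is the lowest value in the RNAPII list, 51.8; the clustered RNAPII-only peaks lie just above it, with a median of 54.6.

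A few members were strong. The highest score, 2972, belonged to a 4750 bp peak that spanned chromosome 4 from 55535501 to 55540250, at 156 per 250 bp. It lay 250 bp from the only other RNAPII peak of its run, 750 bp from a DRIP peak and 4500 bp from NELF-A. The next was a 4000 bp peak of score 2181 on chromosome 1 from 88427001 to 88431000, which was 250 bp from both its RNAPII neighbour and a DRIP peak and 1500 bp from NELF-A. Of lower score were a peak on chromosome 3 from 89904501 to 89909000 with 1925, one on chromosome 11 from 81859001 to 81863250 with 1873, and one on chromosome 2 from 22862001 to 22865500 with 1860. The first 4 of these 5 were the only members of their runs, and the peak on chromosome 2 touched the other member of its run. The widest members were 4750 bp, and besides the one on chromosome 4 these included a pair on chromosome 13, from 58488751 to 58493500 (score 1649) and from 24906251 to 24911000 (score 1494).

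Gaps between a member and its nearest RNAPII peak were mostly short, far below the limit of 10000 bp. The median gap was 500 bp and the quartiles were 250 and 1500 bp. Peaks lie on a 250 bp grid, and the gap was 0 in 255 members (20.2%), 1 grid step in 307 (24.3%) and 500 bp in 131 (10.4%). In 865 members (68.4%) it was 1000 bp or less, and in 91 (7.20%) it exceeded 5000 bp. Touching peaks are entries of the list that adjoin without a base between them. RNAPII lay within 10000 bp on both sides of 665 members (52.6%) and on 1 side of the other 599. Median gaps were 1000 bp or less with every kind of neighbour. The median was 750 bp over 609 adjacent pairs of members and 1000 bp over 510 pairs of a member with a NELF-A-bearing RNAPII peak. It was 750 bp over 171 pairs of a member with a DRIP-bearing peak that lacked NELF-A, and 500 bp over the 30 other pairs. The upper quartile ran from 750 bp in those 30 pairs to 3000 bp in the pairs with NELF-A.

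Closing small gaps brought part of the members into larger blocks that carry NELF or DRIP. With touching RNAPII peaks joined, 63 members (4.98%) fell in blocks of 5000 bp or more and 84 (6.65%) in a block with NELF-A or DRIP. Closing gaps of up to 500 bp put 277 members (21.9%) in such long blocks and 341 (27.0%) in a block with NELF-A or DRIP. With gaps of up to 2000 bp closed, these became 619 (49.0%) and 696 (55.1%), and 375 blocks still held members alone.

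Chained by gaps of at most 10000 bp, RNAPII peaks with at least 1 member formed 587 runs. The median run had 3 peaks and spanned 9000 bp, with quartiles of 4250 and 15750 bp, and the longest spanned 117750 bp. A single member was present in 304 runs, and 225 of these were pairs of 1 member with 1 other peak. There were 140 runs with 2 members, 56 with 3 and 27 with 4. The 60 runs with 5 or more members were 10.2% of the runs and held 404 members, or 32.0% of the set.

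**Figure D2:**
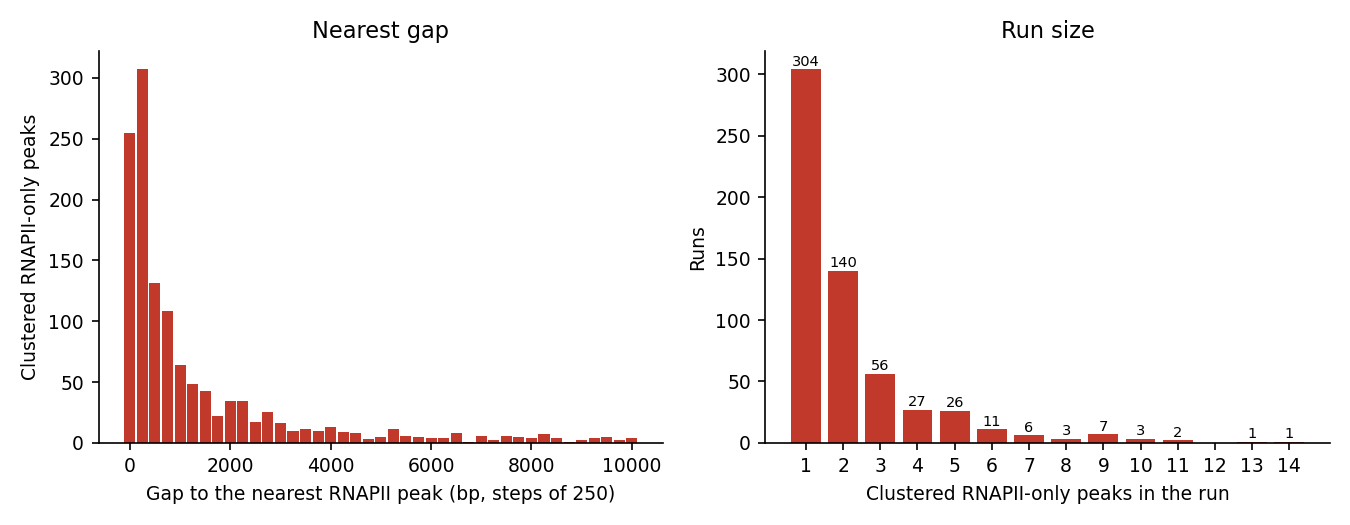
Left, number of clustered RNAPII-only peaks (vertical axis) at each gap to the nearest RNAPII peak in bp (horizontal axis, steps of 250 bp); right, number of runs (vertical axis) by the number of clustered RNAPII-only peaks they hold (horizontal axis). Gaps of 0 and 250 bp account for 255 and 307 peaks, and 304 of 587 runs hold 1 such peak.

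The longest run by members lay on chromosome 1 from 55039501 to 55085000. It had 15 RNAPII peaks, of which 14 were members in an unbroken stretch of 41000 bp that RNAPII peaks covered to 32.9%. Their widths ran from 500 to 2500 bp, their scores from 104 to 631 and the gaps between them from 0 to 5750 bp. The fifteenth peak, from 55082001 to 55085000, stood 1500 bp beyond the high-coordinate end of the stretch and carried NELF-A, NELF-B and DRIP. Its score was 1304, or 109 per 250 bp, whereas the members reached at most 63.1 per 250 bp. All members of the run thus lay on 1 side of the only peak with NELF.

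Runs with longer domains had the same layout with more DRIP. On chromosome 4 from 100820751 to 100938500, 13 of 22 RNAPII peaks were members, 8 carried DRIP and 1 carried NELF-A. That NELF-A-bearing peak was the last one, a 22500 bp domain from 100916001 to 100938500, and all 13 members lay at lower coordinates, interspersed with the peaks that carried DRIP. On chromosome 10 from 66647751 to 66723000 the NELF-A-bearing domain, 27500 bp wide with a score of 9033, came first. All 11 members followed it, 10 of them as an unbroken stretch of 27000 bp from 66696001 to 66723000. From the member at 66698501 onward, however, the nearest NELF-A peak was not in this domain. It lay beyond the high-coordinate end of the run, where the next RNAPII peak stood 24000 bp away. The layout of this run therefore depends on the limit of 10000 bp between its peaks. On chromosome 3 from 135303751 to 135355250, 11 of 18 peaks were members and 7 carried DRIP. Its single NELF-A-bearing peak, from 135348251 to 135355250, was again at 1 end.

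Other named runs departed from this in part. On chromosome 11 from 68631001 to 68673750, 9 members lay on the low-coordinate side of an 8750 bp peak with NELF-A, NELF-B and DRIP, and 1 member lay on its other side. A second run on chromosome 11, from 16866501 to 16909000, had 10 members in an unbroken stretch from 16880251 to 16901500 and no DRIP on any of its 12 RNAPII peaks. Its stretch stood between a 6500 bp peak with NELF-A and without NELF-B and an RNAPII-only domain over 5000 bp wide. In that stretch the widths ran from 500 to 3000 bp and the scores from 104 to 687, at most 57.3 per 250 bp.

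**Figure D3:**
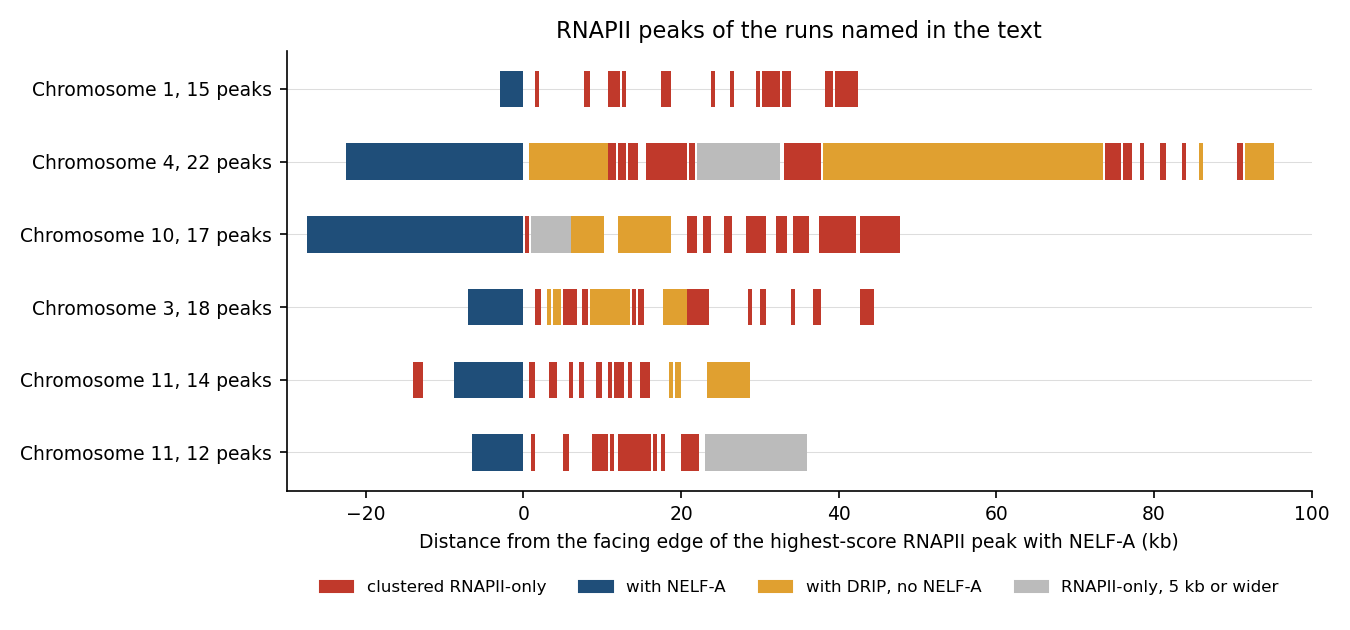
RNAPII peaks (bars, to scale) of the 6 named runs, by distance in kb from the edge of the highest-score RNAPII peak with NELF-A that faces most members; runs are turned so that this side is on the right. Colours give the marks a peak overlaps. In 5 of the 6 runs all clustered RNAPII-only peaks lie on the right, and in the chromosome 11 run of 14 peaks 1 lies on the left.

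The layout of these examples was the usual one in runs with NELF-A and 2 or more members, the runs in which it could be assessed. In most of these, all members lay on 1 side of the NELF-A-bearing peak. Of the 587 runs, 494 (84.2%) held an RNAPII peak with NELF-A, and these runs contained 1030 members, or 81.5% (79.3 to 83.5%). NELF-A is common at RNAPII peaks in general, with a NELF-A peak on or within 1000 bp of 74.7% of the whole list. The share with NELF-A over runs of every kind was not computed, so it is not known whether these shares are particular to runs with members. Among the 195 runs with NELF-A and 2 or more members, all members lay on 1 side of the highest-score NELF-A-bearing peak in 178, or 91.3% (86.5 to 94.5%), and on both sides in 17. Those 178 runs held 662 of the 1264 members. The side was that of higher coordinates in 87 runs and of lower coordinates in 91. In the 153 runs with exactly 1 NELF-A-bearing peak, the share was 93.5%. It was 92.9% for runs with 2 members (78 of 84), 89.2% with 3 (33 of 37) and 90.5% with 4 or more (67 of 74).

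The further peaks of runs without members were less often all on 1 side. Of the 94 runs with NELF-A and 2 or more further RNAPII peaks, none of them a member, 62 (66.0%, 55.9 to 74.7%) had all further peaks on 1 side of the highest-score NELF-A-bearing peak. The odds ratio of 1-sidedness between members and the further peaks of runs without them was 5.40 (95% Woolf interval 2.81 to 10.4). With exactly 2 peaks to place, where 1-sidedness is easiest, it was 4.50 (1.67 to 12.1), from 78 of 84 runs with members and 52 of 70 runs without. These shares count unlike things. In runs with members, the members alone were placed, and other RNAPII peaks of the run, on either side, were passed over. In runs without members, every further peak was placed, which makes 1-sidedness harder to reach. Further peaks of runs without members can also carry NELF-A themselves, which members by the rule cannot. The odds ratios are therefore descriptions, and the part that either point plays in the difference was not tested.

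The members of the 178 1-sided runs, 662 in all, differed little with distance from the NELF-A-bearing peak. The median score per 250 bp was 54.0 up to 1 kb from that peak (108 members), 55.0 at 1 to 3 kb (104), 54.5 at 3 to 10 kb (226), 54.5 at 10 to 30 kb (196) and 54.4 beyond (28). These differences are far smaller than the spread within a class, whose quartiles were 53.2 and 57.0 at 3 to 10 kb. Median width was 750 bp in the first 4 classes and 1125 bp in the last. The peak next to the NELF-A-bearing one was a member in 153 of the 178 runs (86.0%), and so was the last peak of the run on that side in 141 (79.2%). Since that side was chosen for holding the members, both shares are descriptions. The farthest member stood at a median of 9250 bp and at most 90500 bp from the NELF-A-bearing peak.

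The highest-score NELF-A-bearing peaks of the 178 1-sided runs were wide. Their median width was 3500 bp, against 1000 bp for the other 5405 RNAPII peaks with NELF-A, and 57 (32.0%) were 5000 bp or wider, against 4.64%. Since each was chosen as the highest-score one of its run, this is a description. DRIP overlapped 60.1% of them and 22.5% of the others, with an odds ratio of 5.19 (3.82 to 7.05). Between peaks of exactly equal width, 174 of these and 5302 others, the pooled ratio of odds was 1.08, and its interval of 0.748 to 1.57 takes in no difference. For NELF-B the shares were 72.5% and 52.0%, and at equal width the odds ratio was 1.29 (0.898 to 1.85).

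Wide RNAPII domains showed the same asymmetry at their ends. The nearest RNAPII peak was 5000 bp or wider for 107 members, and in 71 cases its highest-score NELF-A peak was centred in the outer 25% at 1 end. Of these 71 members, 60 lay beyond the end away from NELF-A and 11 beyond the NELF-A end, or 84.5% (74.3 to 91.1%) at the far end. Counted once per domain, 59 of 70 domains had members at the far end alone, 10 at the NELF-A end alone and 1 at both. A domain of this kind can itself be the NELF-A-bearing peak of a run counted above, so the domains are no separate check. Clustered peaks under 5000 bp with NELF or DRIP lay beyond the far end of such a domain in 29 of 49 cases (59.2%, 45.2 to 71.8%), and the odds ratio between members and these was 3.76 (1.59 to 8.88). The domains are oriented by NELF-A, which members lack by the rule and the other peaks can carry, so that odds ratio is a description and no independent test. Members at the far end stood closer, with a median gap of 250 bp and 16 of 60 touching the domain. At the NELF-A end the median gap was 4000 bp and none of 11 touched.

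**Figure D4:**
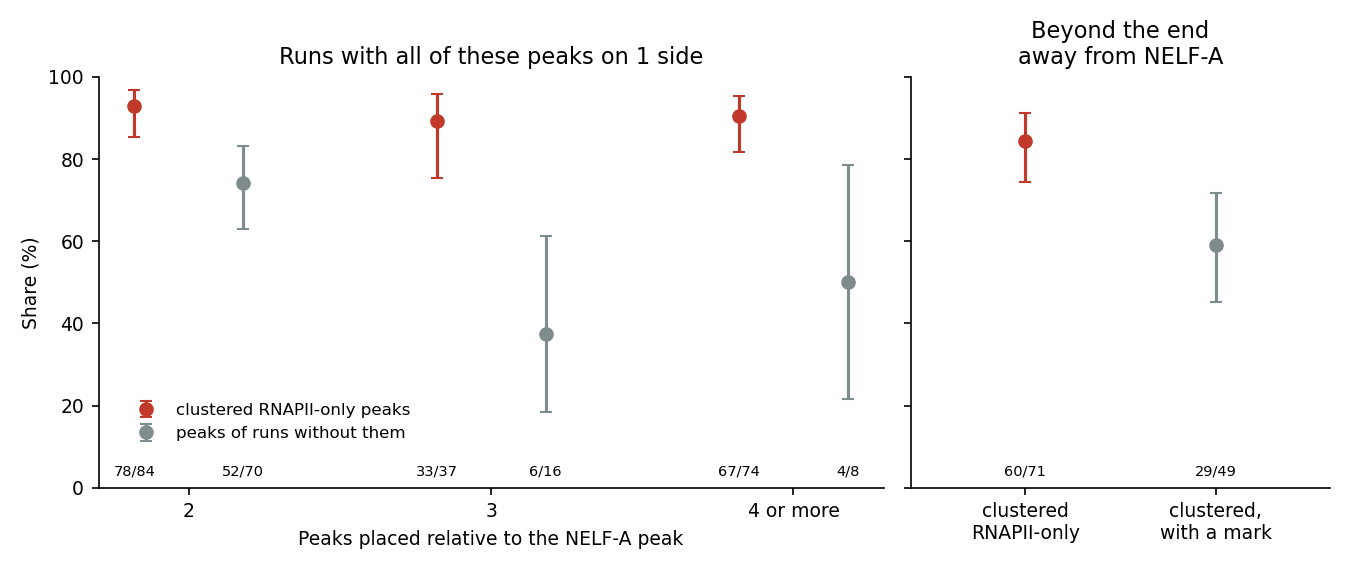
Left, share of runs in % (vertical axis) in which all placed peaks lie on 1 side of the highest-score RNAPII peak with NELF-A, by the number of peaks placed (horizontal axis), for clustered RNAPII-only peaks and for the further peaks of runs without them. Right, share beyond the end of a wide oriented RNAPII domain that lies away from NELF-A. Points are shares, bars are 95% Wilson intervals and fractions give the counts; the clustered RNAPII-only peaks are at 84.5% or above throughout.

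The immediate neighbour of a member was most often another member. This was so for 759 of them (60.05%), while the nearest RNAPII peak carried NELF-A for 395 (31.3%, 28.8 to 33.9%) and DRIP without NELF-A for 95 (7.52%). Over all 3195 RNAPII peaks with another within 10000 bp, the nearest one was a member in 41.9%, and it carried NELF-A in 44.1% and DRIP in 29.6%. Among clustered peaks under 5000 bp with NELF or DRIP, the nearest one was a member in 28.1%. For members the share with DRIP was 21.5% (19.3 to 23.9%). These shares depend on how members are counted. With the highest-score member of each run alone, the nearest RNAPII peak carried NELF-A in 53.0% (48.9 to 57.0%) and DRIP in 31.5% (27.9 to 35.4%).

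Members lay nearer to NELF-A than isolated RNAPII-only peaks did, and the NELF-A concerned was almost always on another RNAPII peak. The median distance to the nearest NELF-A peak was 8500 bp for the members (quartiles 3250 and 18813 bp) and 35000 bp for the isolated peaks (17000 and 98500 bp). NELF-A lay within 10000 bp of 705 members (55.8%, 53.0 to 58.5%) and of 51 isolated peaks (12.0%), while over all RNAPII peaks, overlaps included, the share was 85.5%. For 1178 members (93.2%) the nearest NELF-A peak overlapped an RNAPII peak. That follows in part from the rule, which puts RNAPII near every member. NELF-A peaks off RNAPII lay within 10000 bp of 5.62% of members, 12.0% of isolated peaks, 14.4% of clustered peaks under 5000 bp with NELF or DRIP and 10.8% of all RNAPII peaks. The rule bears on these shares too, since the NELF-A near isolated peaks was off RNAPII in all 51 cases, whereas the neighbours of a member can carry it. The median distance to NELF-B was 19000 bp for members and 100750 bp for isolated peaks.

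The extremes of this distance were single peaks and 1 remote region. NELF-A touched 18 members without overlap, among them a 2000 bp peak of score 538 on chromosome 13 from 58226751 to 58228750, a 2500 bp peak on chromosome 17 from 87366251 to 87368750 with 530 and a 1500 bp peak on chromosome 10 from 22016751 to 22018250 with 351. The 3 members farthest from NELF-A all lay on chromosome 1. The pair of touching members from 175954501 to 175956500 was 1391250 bp or more from NELF-A, yet 12500 bp or a little more from DRIP. The third, from 175682251 to 175683250, was 1119000 bp from NELF-A and 141750 bp from DRIP.

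DRIP peaks were also near, and nearer than NELF-A for most members. The median distance to DRIP was 6625 bp for members (quartiles 2000 and 23813 bp) and 39750 bp for isolated peaks (12250 and 166000 bp). A DRIP peak was nearer than any NELF-A peak for 780 members (61.7%), and the nearest DRIP and NELF-A peaks were on the same side of 790 (62.5%). The order of the medians depends on how members are counted. With the highest-score member of each run alone, the median distance was 6500 bp to DRIP and 5250 bp to NELF-A. DRIP touched 45 members and stood 250 bp away from 61 more. It lay within 10000 bp of 743 members (58.8%, 56.0 to 61.5%) and of 91 isolated peaks (21.4%), an odds ratio of 5.23 (4.05 to 6.77), and within 10000 bp of 45.6% of all RNAPII peaks. Part of this DRIP lay on the neighbouring RNAPII peaks that the rule requires. Restricted to DRIP peaks off RNAPII, the shares were 29.0% of members and 21.2% of isolated peaks, an odds ratio of 1.52 (1.17 to 1.98). Such a DRIP peak lay within 10000 bp of 25.6% of all RNAPII peaks and of 33.3% of clustered peaks under 5000 bp with NELF or DRIP, and the odds ratio of members against these clustered peaks was below 1, at 0.819 (0.699 to 0.960). DRIP near isolated peaks was off RNAPII in 90 of 91 cases, so the rule bears on the first of these ratios, and the other peaks can carry DRIP, so it bears on the second. Neither DRIP nor NELF-A was present within 10000 bp of 273 members (21.6%), and neither was within 50000 bp of 43 (3.402%).

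**Figure D5:**
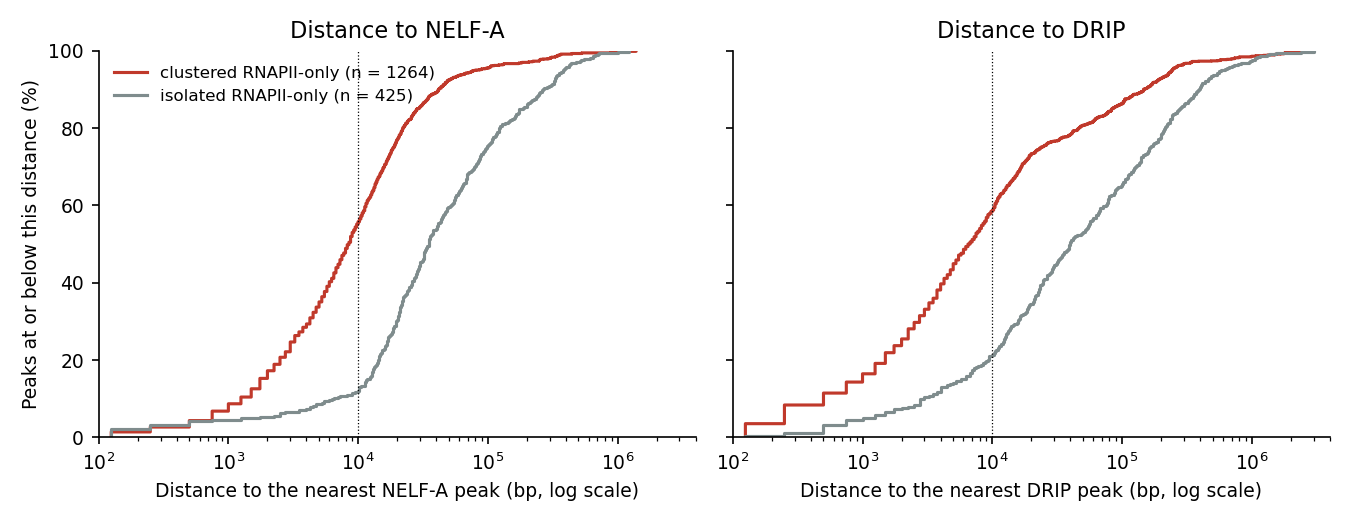
Cumulative share of peaks in % (vertical axis) by distance in bp (horizontal axis, log scale) to the nearest NELF-A peak (left) and DRIP peak (right), for the clustered and the isolated RNAPII-only peaks; touching peaks are drawn at 125 bp and the dotted line marks 10000 bp. At that line the clustered peaks reach 55.8% for NELF-A and 58.8% for DRIP, and the isolated ones 12.0% and 21.4%.

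Where DRIP was unequal between the sides of the NELF-A-bearing peak, it was more often on the members' side. Around the 178 such peaks of 1-sided runs, 102 had no DRIP peak within 10000 bp on either side and 6 had equal numbers. More DRIP peaks lay within 10000 bp on the side of the members in 58 runs and on the other side in 12, so that 82.9% (72.4 to 89.9%) of the unequal runs had it with the members. By definition the members' side holds RNAPII peaks of the run. DRIP that overlaps RNAPII can therefore fall there through the choice of side, and this share is a description. DRIP peaks off RNAPII were more numerous on the members' side in 30 runs and on the other in 15, or 66.7% (52.1 to 78.6%), while 130 runs had none and 3 had equal numbers. Within 5000 bp these counts were 15 and 10, with an interval of 40.7 to 76.6% that includes an even split, and within 20000 bp they were 47 and 13 (78.3%, 66.4 to 86.9%). Further NELF-A peaks, on or off RNAPII, were more numerous within 10000 bp on the members' side in 13 runs and on the other in 17 (43.3%, 27.4 to 60.8%). Members cannot carry NELF-A by the rule, which bears on these counts. For NELF-A peaks off RNAPII the counts were 7 and 9 (43.75%, 23.1 to 66.8%). Both intervals include an even split and overlap that of DRIP off RNAPII at the same distance. A difference between NELF-A and DRIP was not tested. Of the members of the 178 1-sided runs, 437 had DRIP within 10000 bp. For these members the nearest DRIP peak lay toward the NELF-A-bearing peak in 313 (71.6%) and away from it in 124. DRIP overlapped 60.1% of the NELF-A-bearing peaks themselves and there counts as toward them, so this share is a description.

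A smaller group stood without NELF or DRIP on any RNAPII peak of the run. In 74 runs every RNAPII peak was a member, and these runs held 181 members (14.3%, 12.5 to 16.4%). They were short: 50 had 2 members, 17 had 3, 5 had 4 and 2 had 5. In these runs the median distance to NELF-A was 32500 bp, against 6500 bp for the members of runs with NELF-A. The median distance to DRIP was 38500 bp, against 5500 bp. The sorting of runs bears on both distances, which are therefore descriptions. By definition the first runs have neither mark on their RNAPII peaks, and the second have NELF-A. The peaks themselves were similar, with a median width of 750 bp in both and a median score per 250 bp of 55.5 and 54.5. DRIP without NELF-A was rare at the level of runs, with 17 runs and 48 members.

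Members occurred on all 20 chromosomes with peaks. Their share of the RNAPII peaks was between 11.6% and 20.8% on 19 chromosomes, with 147 members in 60 runs on chromosome 11 and 120 members in 46 runs on chromosome 2. Chromosome 8, singled out after its values were seen, had 22 members among 325 RNAPII peaks, or 6.77% (4.51 to 10.04%), in 16 runs. No member lay in the 17 regions of extra-high signal, defined as places where 3 or more lists have 1 of their 10 highest scores or a score per base in their top 1%. The rule fixes this in advance, since an RNAPII peak in such a region overlaps a peak of another list.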

How the data were processed

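Per the labels' protocols, chromatin was sonicated for ChIP-seq (RNAPII, NELF-A, NELF-B) and genomic DNA digested for DRIP-seq. Libraries had 15 PCR cycles, or 18 for NELF. Alignment used BWA and the mm9 build, per the submitters' processing notes. The peak caller, its threshold, any input control and how the 2 RNAPII and the 2 DRIP libraries were combined are details not given in the sources used here. The deposited score is the authors' whole number per peak, of unstated unit, and was compared only within the RNAPII list. Depth is unknown.

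Peaks were used as listed, with 1-based coordinates on a 250 bp grid (1 peak off it). A distance counts the bases between 2 edges. A tie between neighbours went to the lower coordinate. Shares carry 95% Wilson intervals and odds ratios Woolf intervals; at equal width they are Mantel-Haenszel estimates. No p-values were computed, since peaks are not replicates. Python 3.11.15, pandas 2.3.3 and numpy 2.4.6 were used, and the rule, runs and sides were tested on simulated data.

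The members, comparisons and lists were chosen with earlier results of these data known. Named regions are the 5 members of highest score, the 3 widest, the 3 nearest to and 3 farthest from NELF-A, the 5 runs with most members and the 3 longest unbroken stretches. A planned share in gene bodies was not run, since the gene table is of another build. The side of DRIP, the runs without members, the equal-width comparison and DRIP off RNAPII were added after seeing the data.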

Additional observations from a re-analysis of the deposited data

How the results depend on the processing

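No paired analysis was possible because each target has 1 list. The sides of members (runs on 1 side, far end of domains) and both odds ratios for DRIP within 10000 bp stayed within their intervals or on the same side of 1 under every alternative run, where 1 member per run gives no value for the side of members in runs. Requiring 50% overlap of the shorter peak, leaving out the X chromosome and leaving out regions of extra-high signal moved no result beyond its interval, nor the count of members by 1.5 times. The last of these takes out no member directly, since by the rule none lies in such a region. Counting marks within 1000 bp as shared gave a nearest peak with NELF-A for 26.5%, median distances of 10000 bp to NELF-A and 9000 bp to DRIP, and a score ratio to isolated peaks of 0.980. With gaps of at most 5000 bp, 72.5% of members were in a run with NELF-A; with 20000 bp it was 88.04%, with a distance to NELF-A of 9250 bp and a score ratio of 0.975. Joining touching peaks gave a median gap of 750 bp and 34.1% with a NELF-A-bearing nearest peak. Without the lowest 25% of each list by score, there were 699 members, with a gap of 750 bp, 36.9% and 24.6% with NELF-A and DRIP on the nearest peak, distances of 9750 and 9000 bp to NELF-A and DRIP, 77.0% in a run with NELF-A and a score ratio of 0.980. With 1 member per run, added after seeing the data, these were 750 bp, 52.98%, 31.5%, 5250 bp to NELF-A, 84.2% and a score ratio of 1.01, which picking the highest-score member raises by construction. The cause of the other changes was not tested. The weakest peaks, near the floor of the list, limit what can be said: 1 list per target leaves no replicate check of any of them.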
